A study of Mus musculus with 7 samples.

Results

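T cells hold back the signal of their antigen receptor with enzymes that act inside the cell, and 10 genes for such brakes were examined here: the tyrosine phosphatase genes Ptpn6, Ptpn2 and Ptpn22, the ubiquitin ligase genes Cbl and Cblb, Ubash3a and Ubash3b, the diacylglycerol kinase genes Dgka and Dgkz, and the Ras GTPase-activating gene Rasa2. They were the non-control rows of the array that carried one of these gene names. All 10 were on the array, out of 34797 gene names, with 14 probes between them. Each of the 14 probes was well above background on every array, so no filter on low values removed any of these genes.

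Lck is the kinase that starts receptor signalling by phosphorylating the receptor's own chains and, through them, activating Zap70. The phosphatases and the UBASH3 proteins take phosphate off Lck, Zap70 or their substrates, and Cbl and Cbl-b tag activated signalling proteins with ubiquitin. Diacylglycerol kinases consume the lipid that recruits RasGRP1, and RASA2 returns Ras to its inactive form. In naive CD8 cells these brakes are known for setting how strong a stimulus must be before the cell responds.

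The samples were naive CD8 T cells from mouse lymph node, sorted as CD8b+ and CD44low without activation, and their RNA was measured on 1 single-colour array each. Both groups carried the OT-1 T cell receptor transgene (OT-1het) on a Rag-/- background, so both had a single receptor specificity. The 3 WT samples had their own Lck. The 4 samples called Lck-off here came from Lck-/- mice whose doxycycline-dependent, knocked-in Lck had been turned off by 7 days without the drug in the diet. The sources used here do not give the promoter that drives that copy, the diet of the WT mice, or the age and number of animals per sample. No sample came from Lck-/- mice still on doxycycline, so genotype, diet and loss of Lck cannot be told apart. The samples are called biological replicates in the series text, and every p-value here measures the spread between them.

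Levels are given as log2 of the processed intensity minus the same array's 75th percentile, and differences as Lck-off minus WT on that log2 scale. Values after ± are SDs, with n = 3 for WT and n = 4 for Lck-off. Arrays had a 75th percentile of intensity between 208 and 243, with 42.5% to 48.6% of probes well above background. With 7 arrays, precision is limited by their number. The targeted gene, Lck, read 8.99, 9.02 and 8.98 on the WT arrays against 8.52, 8.83, 8.60 and 8.55 on the Lck-off arrays, lower by a difference of -0.37 (adjusted p = 0.0493 by limma, and not passing in 6 of the 7 fits that omitted an array), although the labels do not say whether its probe lies in the altered part. All 10 naive CD8 T cell markers were well above background. Of 8 B cell markers, Cd79b, Cd79a and Cd22 were well above background on all 7 arrays and 4 on none of them, including Ebf1, Ms4a1 and Pax5. None of the 4 measured passed the test (limma adjusted p of at least 0.183, 1 with an unadjusted p under 0.05), and the summed level was 12.6 to 14.7 on WT arrays and 12.4 to 15.3 on Lck-off arrays, most of it Cd79b.

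Of the 10 brakes, Ubash3b and Ptpn6 fell in Lck-off cells, Dgka rose, and the other 7 did not pass the test. Ubash3b fell to 45.5% of its WT level and Ptpn6 to 62.3%, while Dgka rose 1.25-fold. These calls were not equally firm: of 22 alternative fits, 20 kept the call for Ubash3b, 15 for Ptpn6 and 9 for Dgka. A share of 8.38% of all 18231 genes measured passed the same test, an adjusted p under 0.05 by limma with adjustment over all of them, 4.57% lower and 3.8% higher. The groups did not overlap for 4 of the 10, the same 3 genes and Ptpn2, against 21.8% of all genes, 12% with Lck-off lower and 9.8% with Lck-off higher. The median difference of the 10 was 0.00, beside -0.01 for all genes, and 5 of the 10 differences were below 0. The sign of the median of the 10 depended on the scaling of the arrays (-0.02 to 0.04). In RNA from sorted cells in bulk, fewer cells that express a gene and less RNA per cell cannot be told apart.

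**Figure D1:**
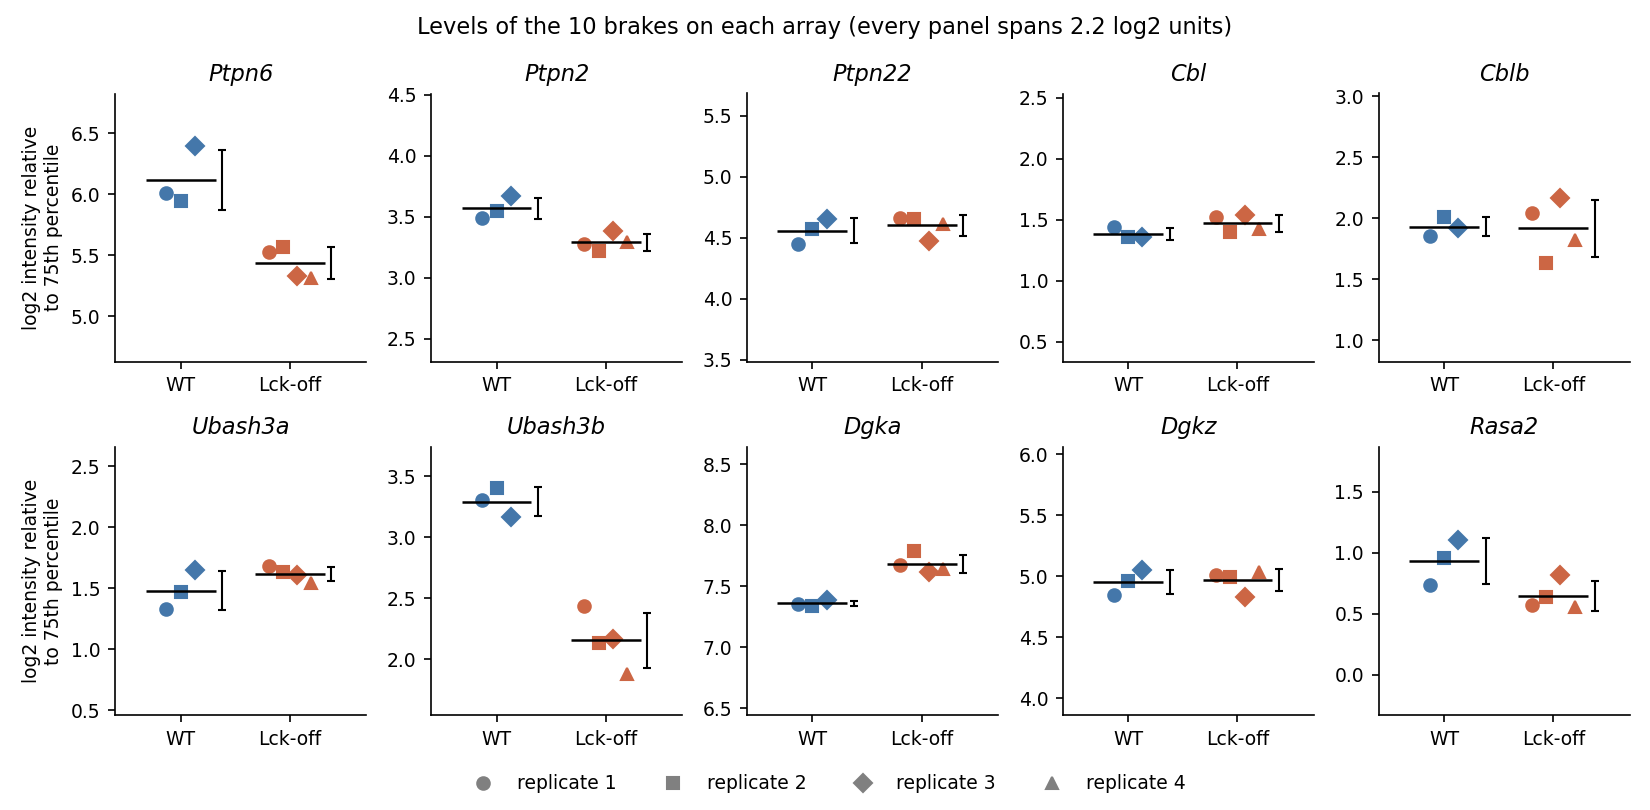
Level of each of the 10 brakes on each array (y axis, log2 intensity relative to the array's 75th percentile) in WT (blue, 3 arrays) and Lck-off (orange, 4 arrays); marker shapes are replicate numbers, horizontal lines are means and bars are ± 1 SD. WT and Lck-off points are fully apart for Ptpn6, Ptpn2, Ubash3b and Dgka, and overlap for the other 6.

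Ubash3b, also known as Sts-1, encodes a phosphatase that acts on Zap70 and related kinases, and it had the largest difference of the 10. WT arrays read 3.30, 3.40 and 3.17 at its brightest probe and Lck-off arrays 2.44, 2.14, 2.17 and 1.88. Every Lck-off array was below every WT array, and the gap between the groups was wider than the range within either group. Ubash3b fell by 1.14 (SE 0.13, adjusted p = 0.00294), with a 95% confidence interval of 36.5% to 56.7% of the WT level. By p it ranked 341 of 18231 genes.

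The array measured Ubash3b at separate places of its transcript, and the first 30 bases of both probes are shown because they carry the clearest change of the set. The sequences are from the minus strand of chromosome 9 (mm9), chr9:40822099-40822158 for the brighter probe and chr9:40819181-40819238 for the other.
Ubash3b, brighter probe: aagcagttaaggagattgacatttgaaagg
Ubash3b, other probe: gttcagagatgacttaataaaaagaaactg
The second probe was dimmer, at 1.06, 1.23 and 1.02 on the WT arrays against 0.09, -0.35, -0.25 and -0.49 on the Lck-off arrays. Its groups were also fully apart. Over all 25578 kept probes, of which 7.33% passed, it fell by 1.35 (SE 0.14, adjusted p = 0.00231) and the brighter one by 1.14 (adjusted p = 0.00366).

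The call for Ubash3b was kept in 7 of 7 fits with an array omitted (adjusted p = 0.0026 to 0.0152). The arrays lay in 2 rows of 1 slide, with 1 WT and 2 Lck-off arrays in row 1 and 2 of each in row 2. The difference was -1.12 with the row as a block (adjusted p = 0.00898), -1.02 within row 1 and -1.20 within row 2. Neither row alone passed the test (adjusted p = 0.133 and 0.148).

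Ubash3a, or Sts-2, is the lymphoid paralog of Ubash3b, with weaker phosphatase activity. Its probe read 1.33, 1.47 and 1.65 on the WT arrays against 1.69, 1.64, 1.61 and 1.55 on the Lck-off arrays, and the highest WT array lay among the Lck-off arrays. The difference was 0.14 (SE 0.09, adjusted p = 0.47), with an interval of 94.8% to 128% of WT. This probe was printed in 10 spots on every array, which gives the error between spots alone, without that of labelling, hybridization or scaling. The SD between spots was 0.03 to 0.08 within an array, against an SD between arrays of 0.16 in WT and 0.06 in Lck-off.

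The pair was set side by side on each array as Ubash3b minus Ubash3a, a choice made after the data were seen, so the values are given as a description only. The probes' levels cannot be set against each other, and only the shift between the groups was read. The difference was 1.52 to 1.97 on WT arrays and 0.34 to 0.75 on Lck-off arrays, a shift of -1.27.

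**Figure D2:**
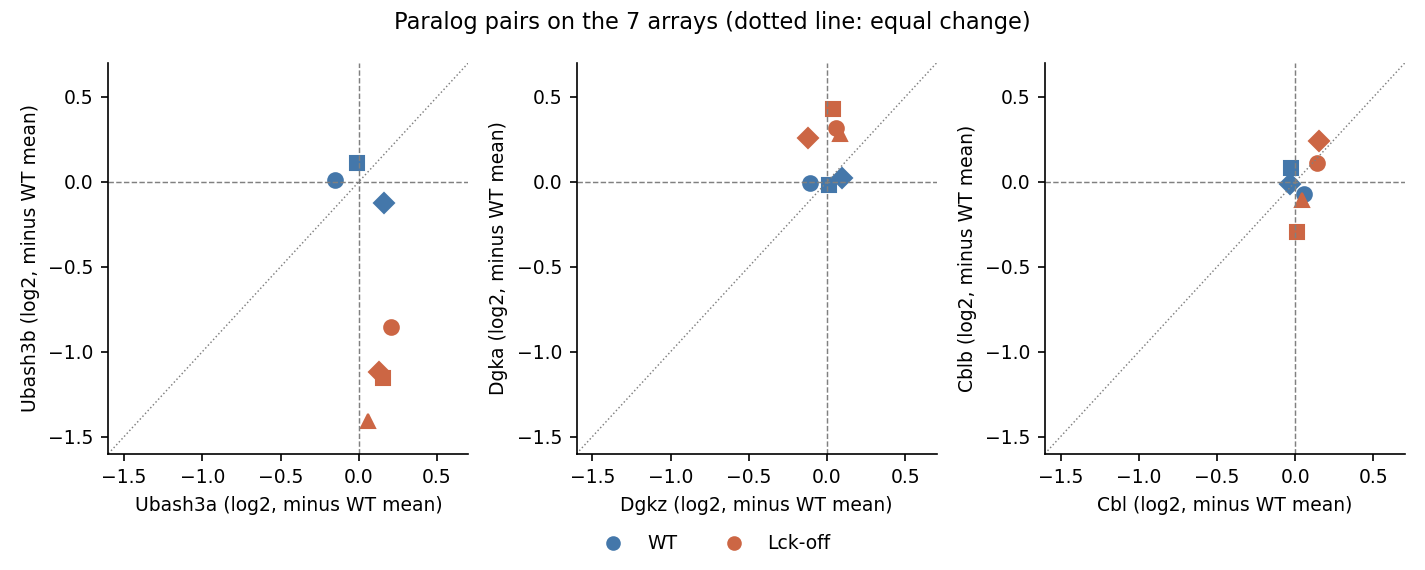
Change of one paralog against the other on each array (both axes log2, minus the WT mean of that gene) for Ubash3b and Ubash3a, Dgka and Dgkz, and Cblb and Cbl, with WT in blue, Lck-off in orange and the same marker shapes for replicates 1 to 4 (circle, square, diamond, triangle). The 4 Lck-off points lie below the line of equal change for Ubash3b and above it for Dgka, while WT and Lck-off points intermingle for Cblb and Cbl.

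Ptpn6 encodes SHP-1, a phosphatase with SH2 domains that is recruited to inhibitory receptors and dephosphorylates Lck, Zap70 and their substrates. WT arrays read 6.01, 5.95 and 6.40 and Lck-off arrays 5.53, 5.56, 5.33 and 5.31. All Lck-off arrays were below all WT arrays, and WT replicate 3 stood above the other WT arrays. The WT level was 6.12 ± 0.24 and the Lck-off level 5.43 ± 0.13. Ptpn6 fell by 0.68 (SE 0.13, adjusted p = 0.0209), with an interval of 50.3% to 77.1% of the WT level.

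One probe measured Ptpn6, on the minus strand at chr6:124671114-124671173 (mm9). Its first 48 bases are shown because they place the measurement at the end of the coding sequence: read from base 1 they hold 15 codons and then a stop codon, in capitals.
Ptpn6 probe: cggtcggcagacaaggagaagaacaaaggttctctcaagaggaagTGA
The probe cannot tell transcripts with different first exons apart, since it lies at the other end.

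Leaving out Lck-off replicate 3 or replicate 4 ended the call for Ptpn6 (adjusted p = 0.0655 and 0.0638), and it was kept when any of the other 5 arrays was left out. Without WT replicate 3 the difference was -0.54 (limma adjusted p = 0.0419). Scaling to the median also ended the call, as did dropping the filter on dim probes (limma adjusted p = 0.0902 for each). With a block for the slide row the difference was -0.71 (adjusted p = 0.0231). It was -0.95 within row 1 and -0.56 within row 2, neither of which passed alone (adjusted p = 0.174 and 0.181).

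Ptpn6 is also expressed in myeloid cells, so their markers were read beside it. All 11 measured markers of macrophages, monocytes and neutrophils, of 17 on the array, had differences above 0, with a median of 0.64. C1qb passed (0.59, adjusted p = 0.0469), but in 1 of the 7 fits that omitted an array (adjusted p = 0.0343 to 0.144). It was dim, with a WT mean of -2.391, and its difference was 0.206 to 0.591 over the scalings of the arrays, normexp and the deposited table. C1qc (1.75), Mpeg1 (1.49) and C1qa (1.38) had larger differences that did not pass (adjusted p = 0.0932, 0.0865 and 0.0734). Each of these genes was well above background on 1 WT array and 4 Lck-off arrays. They therefore met the filter on low values only through the group where they were higher, with WT means of -3.78, -3.44 and -3.81. The count of 11 and its median include them and were partly shaped by that filter. The summed level of the 17 was 218 to 269 on WT arrays and 243 to 284 on Lck-off arrays, in units of the 75th percentile, most of it Csf3r, and 42.1 to 59.1 and 52.2 to 64.2 without it. Fcgr3 was the marker that no array showed well above background.

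Of 7 measured dendritic cell markers, of 12 on the array, 6 had differences above 0 and 0 passed (median 1.07, limma adjusted p of at least 0.223, 2 with an unadjusted p under 0.05). The antigen presentation genes H2-Ab1, H2-Eb1, Cd74 and H2-Aa differed by 1.40, 1.26, 1.12 and 1.07, with Lck-off replicate 2 highest for each. H2-Aa, whose difference is the median, was well above background on 2 WT arrays and 4 Lck-off arrays (WT mean -3.105). It met the filter on low values only through the group where it was higher. Zbtb46 was well above background on 1 WT array and 2 Lck-off arrays. The count of 6 and the median were partly shaped by that filter. The sum of the 12 was 245 to 266 on WT arrays and 254 to 316 on Lck-off arrays, nearly all of it Siglech, and 2.02 to 5.01 and 3.27 to 13.5 without it. Cd209a and Clec9a were well above background on none of the arrays. The part of these cells in the differences of the brakes was not tested.

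Ptpn2 encodes TC-PTP, which dephosphorylates Lck and Fyn as well as JAK and STAT proteins. Its brightest probe read 3.49, 3.54 and 3.67 on the WT arrays against 3.27, 3.22, 3.38 and 3.29 on the Lck-off arrays. The groups did not overlap, yet the difference of -0.28 (SE 0.08) missed the threshold (adjusted p = 0.0764), at 72.9% to 93.5% of the WT level. The other probes differed by -0.30 (adjusted p = 0.208) and -0.10 (adjusted p = 0.738) in the fit over all probes. The dimmest of the 3 had intensities of 25.1 to 35.1. With trended and robust moderation Ptpn2 passed (adjusted p = 0.0312).

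Ptpn22 encodes a phosphatase, known as PEP or LYP, that works with the kinase Csk on Lck and Zap70. It read 4.45, 4.57 and 4.66 on the WT arrays against 4.66, 4.66, 4.48 and 4.62 on the Lck-off arrays. The groups overlapped almost entirely, and the difference was 0.04 (SE 0.08, adjusted p = 0.832). Its interval was 90.0% to 118% of WT, which overlaps that of Ptpn2.

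Of the ubiquitin ligases, neither Cbl nor Cblb passed the test. Cbl, which directs activated receptor chains and Zap70 to breakdown, read 1.44, 1.36 and 1.36 on the WT arrays against 1.53, 1.40, 1.54 and 1.43 on the Lck-off arrays. The difference was 0.09 (SE 0.07, adjusted p = 0.567), or 94.7% to 119% of WT. Cblb, whose product makes T cell activation depend on costimulation, read 1.86, 2.01 and 1.92 on the WT arrays against 2.04, 1.64, 2.17 and 1.83 on the Lck-off arrays. Here the Lck-off arrays lay on both sides of all WT arrays, with an SD of 0.24 against 0.08. The difference was -0.01 (SE 0.13, adjusted p = 0.974), with a wider interval of 79.8% to 123% of WT. A second, dim Cblb probe differed by 0.26 (SE 0.31), and Lck-off replicate 1 stood at -1.04 against -2.39 to -1.78 on the other arrays. Cblb minus Cbl was 0.42 to 0.65 on WT arrays and 0.24 to 0.63 on Lck-off arrays, which overlapped.

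**Figure D3:**
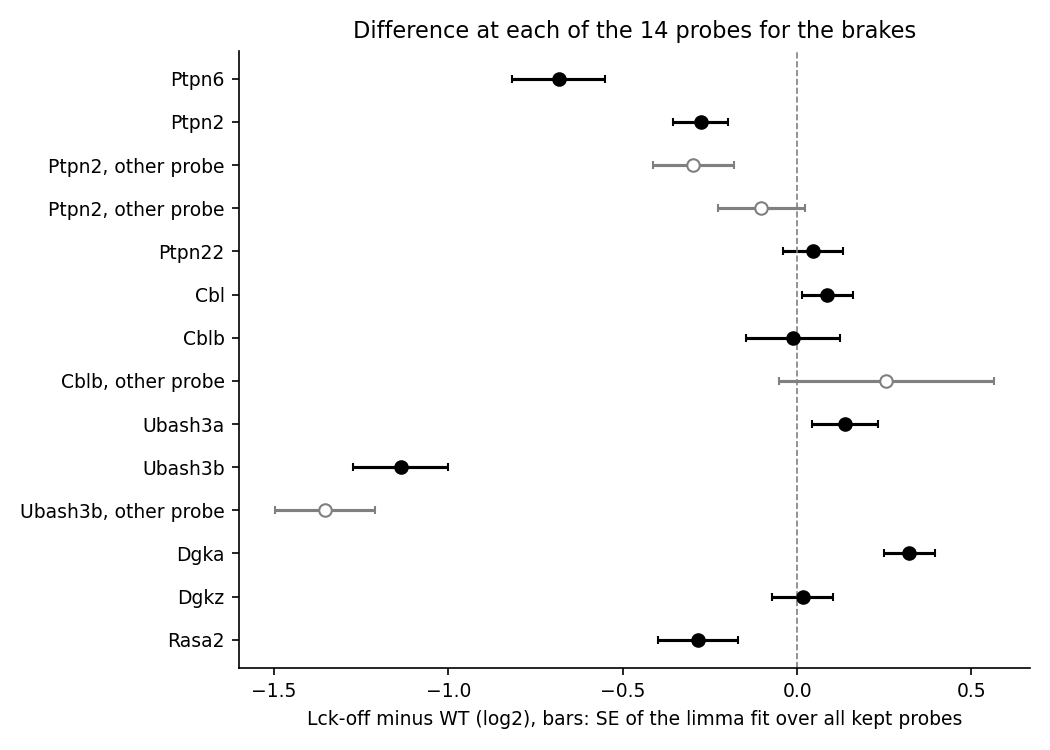
Lck-off minus WT (x axis, log2) at each of the 14 probes, from the limma fit over all kept probes; filled points are the probe used for the gene, open points its other probes, and bars are ± 1 SE. Both Ubash3b probes lie below -1, the 3 Ptpn2 probes lie between -0.30 and -0.10, and the dim Cblb probe has the longest bar.

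Of the diacylglycerol kinases, Dgka rose and Dgkz did not pass the test. Dgka, the isoform abundant in resting T cells, read 7.35, 7.34 and 7.39 on the WT arrays against 7.68, 7.79, 7.62 and 7.64 on the Lck-off arrays, so every Lck-off array was above every WT array. Dgka rose by 0.32 (SE 0.07, adjusted p = 0.0333), at 111% to 140% of the WT level. Its WT arrays were close together (SD 0.02), and the call rested on all of them: it was lost in 7 of 7 repeats with 1 array left out, with differences of 0.29 to 0.34 (adjusted p = 0.0575 to 0.122). With a block for the slide row the difference was 0.31 (adjusted p = 0.0603), and within rows 1 and 2 it was 0.32 and 0.31 (adjusted p = 0.542 and 0.261). The direction was the same in all 22 alternatives tried, from 0.29 to 0.34.

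Dgkz, the second isoform of T cells, read 4.84, 4.96 and 5.05 on the WT arrays against 5.01, 4.99, 4.83 and 5.04 on the Lck-off arrays. The groups overlapped, with a difference of 0.02 (SE 0.08, adjusted p = 0.945) and an interval of 88.1% to 116% of WT. Dgka minus Dgkz was 2.34 to 2.51 on the WT arrays and 2.61 to 2.80 on the Lck-off arrays. This shift of 0.31 was also read after the data were seen and is given as a description only.

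Rasa2, the Ras GTPase-activating gene, read 0.73, 0.96 and 1.11 on the WT arrays against 0.58, 0.64, 0.82 and 0.56 on the Lck-off arrays. Lck-off replicate 3 lay above the lowest WT array. The difference of -0.28 (SE 0.11) did not pass (adjusted p = 0.2), with an interval of 68.4% to 98.6% of WT.

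The sequence before the start site is shown for the 2 brakes that fell. RefSeq promoter windows (GRCm38.p6) were found for 9 of the 10 genes, 15 windows in all, and some windows of a gene overlap. The 250 bases before the start are given for Ptpn6 (minus strand, chr6:124738710-124738959) and for the more upstream of the 2 Ubash3b windows (minus strand, chr9:41158063-41158312). Capitals mark matches, on either strand, to the SP/KLF box GGGCGG or to the STAT site TTCNNNGAA.
Ptpn6 promoter: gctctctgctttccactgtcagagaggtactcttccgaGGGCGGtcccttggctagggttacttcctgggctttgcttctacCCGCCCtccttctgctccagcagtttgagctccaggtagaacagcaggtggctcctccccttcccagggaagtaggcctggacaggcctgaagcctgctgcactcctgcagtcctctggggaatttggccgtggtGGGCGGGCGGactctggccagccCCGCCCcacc
Ubash3b promoter: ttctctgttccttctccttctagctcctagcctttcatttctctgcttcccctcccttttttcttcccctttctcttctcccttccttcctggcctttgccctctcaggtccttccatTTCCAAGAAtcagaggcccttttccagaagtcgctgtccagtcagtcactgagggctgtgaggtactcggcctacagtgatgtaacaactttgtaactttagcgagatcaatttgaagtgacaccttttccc
The Ptpn6 window held 5 matches to GGGCGG, a pair of which overlap, and the Ubash3b window held none. The box was in 9 of the 15 windows, beside 32.7% of all 32851 windows of this length. The STAT site was in 2 of 15, beside 7.02%. The interferon response element, searched as GAAA, any 2 bases and GAAA again, was in 0 of 15, beside 2.98%. The ETS site CCGGAAGT was also in 0 of 15, beside 2.88%. The other Ubash3b window (chr9:41079507-41079756) held no match to any of these motifs. These matches describe letters alone, and which start site these cells use was not measured.

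The genes that the brakes act on, and the relatives of the brakes, were read from the same fit. Of 97 measured genes in 7 lists, 11 rose and 5 fell, or 11.3% and 5.15%, beside 3.8% and 4.57% of all genes. Lck, the targeted gene, is among the 5 that fell. The lists were chosen with earlier results of these data known, so these shares are a description only. This count of 16 was 25 with trended and robust moderation and fell to 8, 6, 9, 8 and 8 without WT replicates 1, 2 and 3 and Lck-off replicates 3 and 4. In those omissions the genes called in all also fell, from 1527 to 1087, 960, 984, 964 and 968. With scaling to the median the list count was 5 of 97, beside 918 of 18231 genes. With a replicate block it was 2 of 97, beside 374 of 18231. In 9 other alternatives it was 11 to 20.

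In proximal receptor signalling 4 of 23 genes rose, 1 fell and 18 did not pass, with a median of 0.04. The share called was 21.7%, beside 8.38% of all genes. Among those that rose were the kinase gene Tec (0.55, adjusted p = 0.00265), the adaptor gene Grap2 (0.40, adjusted p = 0.029) and Lat (0.27, adjusted p = 0.0466), the scaffold on which the signal branches. Lck was the gene that fell, and it is counted in that share although it is the targeted gene. Zap70, a shared substrate of Ptpn6, Ptpn22, Ubash3b and Cbl, differed by -0.20 (adjusted p = 0.225), and the receptor chain genes Cd3d and Cd3e differed by 0.01 and -0.04 (adjusted p = 0.976 and 0.801).

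In the diacylglycerol, Ras and ERK branch, which Dgka, Dgkz and Rasa2 oppose, the call was lower for 3 of 18 genes and higher for 0, and the remaining 15 did not pass. The median was -0.12 and the share called 16.7%, beside 8.38% of all genes. Malt1, a protease of the NF-kB branch of receptor signalling, was at 3.85 ± 0.07 in WT cells and 3.22 ± 0.12 in Lck-off cells, and fell by 0.63 (adjusted p = 0.00555). Rasgrp1, the diacylglycerol-dependent activator of Ras, read 4.34, 4.53 and 4.44 on the WT arrays against 4.12, 3.71, 3.86 and 3.74 on the Lck-off arrays, and fell by 0.58 (adjusted p = 0.0236). Sos2, another Ras activator, fell by 0.39 (adjusted p = 0.0357). For all 3 the groups did not overlap.

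**Figure D4:**
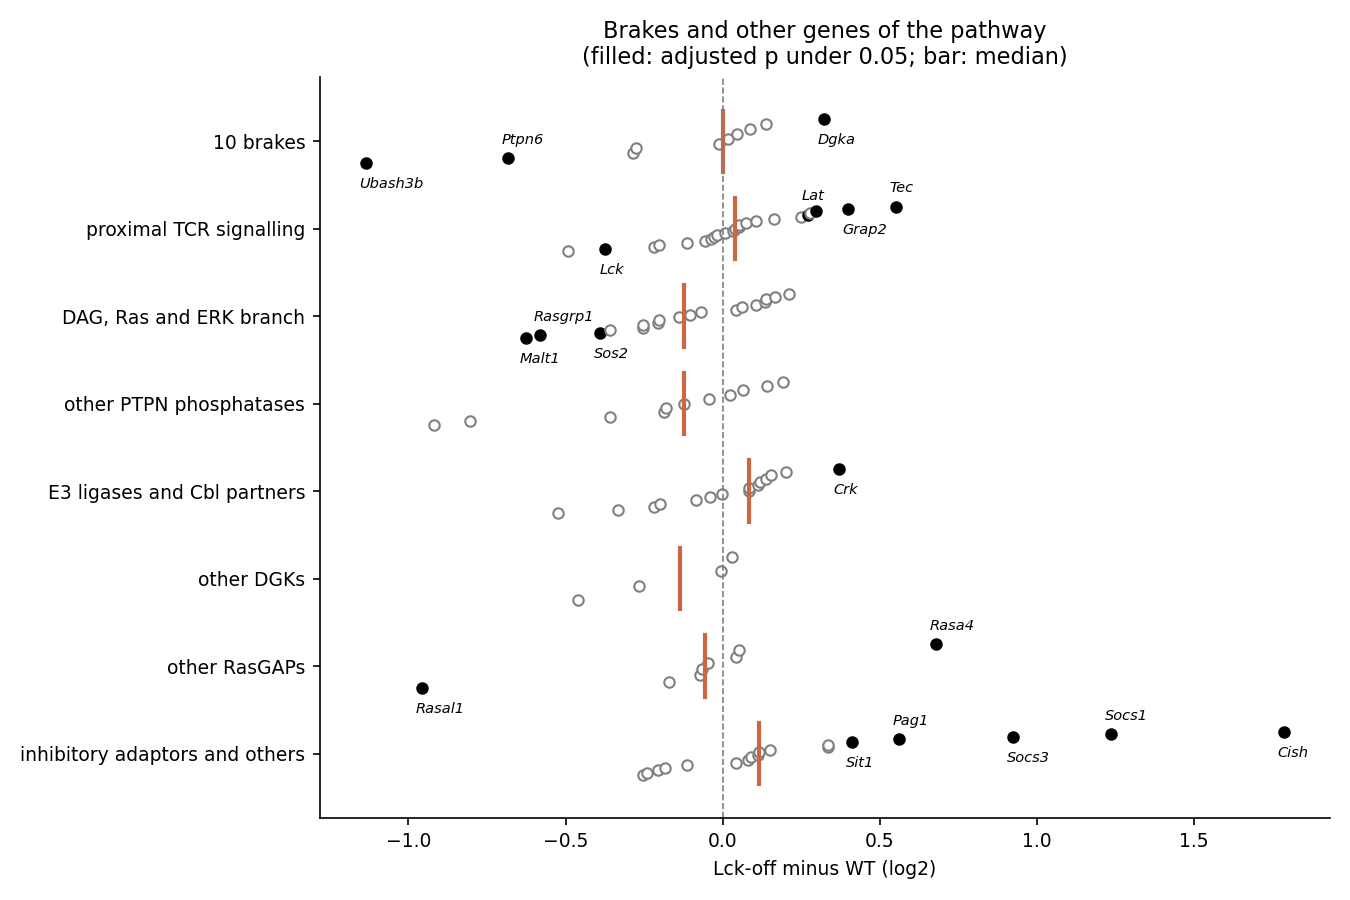
Lck-off minus WT (x axis, log2) for each measured gene of the 10 brakes and of 7 lists of the pathway (rows); filled points have an adjusted p under 0.05 by limma, open points do not, names mark the genes given in the text, and orange bars are medians. Rasal1 and Ubash3b lie farthest to the left, and Cish and Socs1 farthest to the right.

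The relatives of the brakes mostly did not pass, and 8.38% of all genes did. None of the 11 other non-receptor phosphatase genes did (median -0.12, with 1 at an unadjusted p under 0.05), nor any of the 4 other measured diacylglycerol kinase genes (median -0.14, with 2 at an unadjusted p under 0.05), both by limma. Ptpn11, which encodes SHP-2, the closest relative of SHP-1, differed by -0.12 (adjusted p = 0.553). Of 8 other RasGAP genes, Rasa4 rose by 0.68 (adjusted p = 0.00561) and Rasal1 fell by 0.96 (adjusted p = 0.00587). Rasa4 read 0.65, 0.69 and 0.76 on the WT arrays against 1.23, 1.57, 1.31 and 1.42 on the Lck-off arrays. Rasal1 read 0.40, 0.69 and 0.92 on the WT arrays against -0.21, -0.20, -0.47 and -0.27 on the Lck-off arrays. The groups were fully apart for both genes. Of 15 ligases and partners of Cbl, the adaptor gene Crk rose (0.37, adjusted p = 0.046) and 14 did not pass. The median was 0.08, and 0.01 to 0.08 over the scalings of the arrays, normexp and the deposited table. The groups did not overlap for 4 of the 15, beside 21.8% of all genes. These were Crk and, with Lck-off lower, Nedd4, Sla and Ndfip1 (-0.53, -0.33 and -0.22, limma adjusted p = 0.054, 0.0787 and 0.0905). Itch, a ligase linked to T cell anergy, differed by -0.09 (adjusted p = 0.703).

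Of 18 inhibitory adaptors, receptor phosphatases and cytokine inhibitors 5 rose, 0 fell and the other 13 missed the threshold (median 0.11). The share called was 27.8%, beside 8.38% of all genes. As this list was chosen with earlier results of these data known, the share is a description only. Sit1 (0.41, adjusted p = 0.0185) and Pag1 (0.56, adjusted p = 0.0206) encode membrane adaptors of receptor inhibition, and PAG binds Csk. Pag1 was dim, with a WT mean of -2.776. Over the scalings of the arrays, normexp and the deposited table, the Pag1 difference was 0.192 to 0.561 and the Sit1 difference 0.387 to 0.412. The other 3, Cish (1.79, adjusted p = 0.000411), Socs1 (1.24, adjusted p = 0.00071) and Socs3 (0.92, adjusted p = 0.0149), encode inhibitors of cytokine signalling. Csk itself differed by 0.09 (adjusted p = 0.773). Tec, Malt1, Rasa4, Rasal1, Cish and Socs1 kept their calls in all 7 repeats with 1 array left out. Socs3, Sit1, Pag1, Sos2, Crk, Rasgrp1, Grap2 and Lat lost theirs in 2, 3, 5, 5, 6, 6, 6 and 7 of them, with adjusted p up to 0.136.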

How the data were processed

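Total RNA from 7 samples was measured on 1 array each. The intensity values were produced by the authors with version 10.7.3.1 of Feature Extraction on the array design 028005, per the file headers, including background subtraction and detrending within each array, with probe positions on mm9. The flags and spot types stem from that software too, per the file headers. The deposited value table is in log2, as its values show, and limma is named in the submitters' processing notes. The sources used here do not give its steps, and it served as an alternative. Here, processed intensities were put on the log2 scale and scaled to each array's 75th percentile over non-control spots. Non-uniform spots were left out, spots of a probe averaged, probes kept if 3 or more of the 7 arrays had them well above background (25578 of 55681), and the brightest kept probe taken per gene name. Groups came from the sample titles. The groups were compared by limma 3.58.1 in R 4.3.3, two-sided, with Benjamini-Hochberg adjustment over 18231 genes, and the script was tested on simulated data. Alternatives were normexp with an offset of 50, other scalings, filters and moderation, weights for arrays, a block for the replicate number or the slide row, and omission of single arrays. Leaving out population outlier spots was added after the data were seen. Genes and lists were chosen with earlier results of these data known. All brakes, up to 6 called genes of smallest p per list and, for each called brake, the 3 genes of highest Pearson's r were named. Others named with their values were chosen after these were seen. Some genes of the lists are counted but not reported by name here.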

Additional observations from a re-analysis of the deposited data

How the results depend on the processing

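Of the 3 changed brakes, 3 were also called with normexp, quantile normalization, the 75th percentile over detected probes, the deposited table, probes detected on all arrays, the mean of all probes, array weights and population outlier spots left out. The count was 4 with trended and robust moderation and 2 with a block for the slide row. With scaling to the median, without the filter on dim probes and with a replicate block, 1 brake was called, 918, 717 and 374 genes in all, and 5, 6 and 2 list genes. That brake was Ubash3b each time. The list count was 25 with trended and robust moderation. In slide row 1 alone 0 brakes and 0 list genes were called by limma (2 and 12 at an unadjusted p under 0.05) and 105 genes. In row 2 alone 0 brakes, 0 list genes and 0 genes were called (3, 22 and 2711 at an unadjusted p under 0.05). With 1 array left out the counts were 1 to 2 brakes, 960 to 1405 genes and 6 to 13 list genes. Without Lck-off replicate 3 or 4 1 brake was called, Ubash3b. Omitting WT replicate 2 or 3 gave 960 or 984 genes, and omitting Lck-off replicate 3 or 4 gave 964 or 968. The sample titles give replicate numbers but no pairing. Deviations from the group means of samples 1, 2 and 3 correlated at 0.106, 0.0493 and -0.00831 across genes. Pairs with unlike numbers correlated at -0.174 to 0.138. With so few arrays these values cannot show whether the numbers pair the samples. The replicate block left Ubash3b called (-1.04, adjusted p = 0.0404), but not Ptpn6 (-0.64, adjusted p = 0.183) or Dgka (0.34, adjusted p = 0.23). Replicate number 4 occurs only in Lck-off, so with this block that array adds nothing to the comparison. The differences were the same as without Lck-off replicate 4.

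Among the brakes, the sign changed for 4 genes, none of which passed the test. Cblb was 0.0089 with normexp, 0.054 in the deposited table, 0.12 with the mean of all probes, 0.014 with array weights, 0.019 with the replicate block and -0.096 to 0.082 with 1 array left out. Dgkz was -0.0017 with scaling to the median, -0.0039 with array weights, -0.0070 with the replicate block, -0.13 in row 1 alone and -0.037 to 0.063 with 1 array left out. Ptpn22 was -0.090 in row 1 alone and -0.011 to 0.093 with 1 array left out, and Ubash3a was -0.023 in row 1 alone. The causes were not tested.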

Other observations

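The genes around the brakes were counted on mm9, to show whether a brake changed along with its surroundings. Within 2 Mb of Ubash3b, 1 of 25 other measured genes was called, and their median difference was -0.00. Around Ptpn6 it was 6 of 52, 3 lower and 3 higher, with a median of 0.05, among them Cd9 and the glycolytic gene Tpi1. Around Dgka it was 5 of 85, with a median of -0.03, among them Stat2, which transmits interferon signals, and Ikzf4. A share of 8.38% was called among all genes.

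For the 3 brakes that changed, the measured genes with the most similar values over the 7 arrays were found by Pearson's r, over arrays that fall into 2 groups. They were Zfp593, Athl1 and Sqle for Ubash3b (r = 0.994, 0.992 and 0.992), Eif3b, a probe with no gene name and Gnas for Ptpn6 (0.994, 0.993 and 0.99), and Setd1b, 2010111I01Rik and AK158083 for Dgka (0.997, 0.993 and 0.99). Among 18231 genes and 7 arrays some values near 1 arise in any case, and these are a description with no test.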
